A study of Mus musculus with 12 samples.

Results

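The hemidesmosome and anchoring laminin genes are 9 genes whose products attach basal keratinocytes to the basement membrane. They were chosen by name (Itga3, Itga6, Itgb1, Itgb4, Lama3, Lamb3, Dst, Plec and Cd151), and all 9 were present among the 14533 genes of the deposited count table. In these mice none of the 9 passed the test for a difference between Pparg-/-epi and WT epidermis after adjustment over all genes. Of all genes, 7.54% passed as higher and 7.84% as lower. For 8 of the 9 the 95% interval of the difference stayed within 0.6 on the log2 scale in either direction. The same held for 45.2% of all genes. The ratio of Itga6 plus Itgb4 to the keratins Krt5 plus Krt14 did differ, at 0.0299 in WT mice and 0.0183 in Pparg-/-epi mice, and of these 4 genes Krt14 alone passed the test, as higher.

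A hemidesmosome is the junction through which a basal keratinocyte is riveted to the sheet of matrix beneath it. Integrin α6β4 (Itga6, Itgb4) spans the membrane and binds the anchoring laminin of skin, which contains the products of Lama3 and Lamb3, while plectin (Plec) and the plakin BP230, made from Dst, tie the integrin to the keratin filaments of Krt5 and Krt14. Integrin α3β1 (Itga3, Itgb1) is the other main receptor for this laminin on these cells and couples to actin, and the tetraspanin Cd151 accompanies both laminin-binding integrins. Inherited loss of most of these proteins in humans gives skin that blisters.

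The study asked how loss of Pparg, a lipid-activated nuclear receptor, from the epidermis alters its resting transcriptome. All 12 mice were C57BL/6 animals with both Pparg alleles floxed (flox/flox). The 6 WT mice lacked the Cre transgene (Cre-/-), and the 6 Pparg-/-epi mice carried Cre under the Cytokeratin14 promoter, which is active in basal keratinocytes. No mouse was treated, ages ran from 8 to 13 weeks in each group, and the groups held 3 female and 3 male WT mice and 4 female and 2 male Pparg-/-epi mice. RNA came from frozen dorsal epidermis scraped down to the vessels beneath it, with 1 library per mouse. WT mice are named here as replicates 1 to 6 and Pparg-/-epi mice as replicates 7 to 12. Library totals were 10120840 to 16947632 counts for WT and 11272135 to 18851255 for the other group. RNA integrity (RIN) averaged 6.88 ± 1.03 in WT and 7.55 ± 1.07 in Pparg-/-epi mice (SD, n = 6 each).

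The Pparg row did not tell the genotypes apart (log2 difference -0.10, 95% interval -1.62 to 1.43, adjusted p = 0.949 by edgeR). The gene was thinly covered, with totals per mouse from 5 to 269 for the WT group and from 16 to 107 for the other group. Counts there are summed over the whole gene, whereas the deletion removes only exons 1 and 2. For keratinocytes cultured from Pparg-/-epi mice, the paper names contaminating fibroblasts as the likely source of the remaining intact Pparg RNA. Which of these points bears on the Pparg result here was not tested. Basal keratinocyte markers were abundant in all mice, with Krt5, Krt14, Krt15 and Trp63 summing to between 7815 and 14542 CPM in WT (counts scaled to a common library total with TMM) and 9973 to 13809 CPM in the Pparg-/-epi group. Cells of other types were present too. The sum of 6 dermal markers (Col1a1, Col1a2, Col3a1, Dcn, Lum, Pdgfra) lay between 1014 and 34533 CPM in WT and between 5324 and 11169 CPM in the other group, and none of the 6 passed the test for genotype. Muscle markers reached 7559 CPM in WT replicate 5, against at most 635 CPM in any other mouse. Bulk RNA cannot tell fewer cells of a type from less RNA per cell.

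RefSeq start-site windows of GRCm38.p6 (250 bases before to 50 after an annotated start, the assembly otherwise called mm10) were on hand for 5 of the 9 genes, Itga3, Itgb1, Lamb3, Dst and Cd151, as 9 windows. They were searched on both strands for TGANTCA, a loose form of the AP-1 motif in which N is any base. The DR1 direct repeat, the element bound by PPARγ with its partner RXR, was searched too. Shown here are the window holding a match, and the windows of the laminin β3 chain and of Cd151, the gene with the narrowest interval. Capitals mark the motif match.

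Itga3, chr11:95069149-95069448, minus strand: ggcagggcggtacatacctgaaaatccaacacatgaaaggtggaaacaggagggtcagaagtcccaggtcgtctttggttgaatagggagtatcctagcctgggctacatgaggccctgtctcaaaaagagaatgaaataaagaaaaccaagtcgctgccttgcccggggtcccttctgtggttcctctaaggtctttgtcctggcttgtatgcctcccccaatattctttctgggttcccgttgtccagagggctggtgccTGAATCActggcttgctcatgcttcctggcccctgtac
Lamb3, chr1:193301744-193302043, plus strand: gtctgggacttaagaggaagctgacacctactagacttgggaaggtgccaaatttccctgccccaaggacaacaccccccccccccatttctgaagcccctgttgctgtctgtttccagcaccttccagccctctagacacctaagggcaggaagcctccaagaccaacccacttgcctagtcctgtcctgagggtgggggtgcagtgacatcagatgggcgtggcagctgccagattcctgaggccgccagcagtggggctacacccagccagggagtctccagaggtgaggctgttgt
Cd151, chr7:141467112-141467411, plus strand: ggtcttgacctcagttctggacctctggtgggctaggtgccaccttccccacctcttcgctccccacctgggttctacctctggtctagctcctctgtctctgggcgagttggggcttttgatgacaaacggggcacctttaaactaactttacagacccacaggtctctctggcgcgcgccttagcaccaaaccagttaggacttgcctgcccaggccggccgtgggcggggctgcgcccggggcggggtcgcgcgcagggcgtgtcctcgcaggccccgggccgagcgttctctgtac

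The Itga3 window lies inside the gene, at an inner start, and was the 1 window of the 9 with a TGANTCA match. The matched letters were TGAATCA, with A at the open position, and a stricter AP-1 motif was not searched. Of 32851 RefSeq windows, 7.81% held TGANTCA with any base at that position. DR1 was in 0 of the 9 windows and in 0.0396% of all windows. With a match this rare, 0 of 9 says little, and looser forms of the element were not searched. These are matches of letters and were not tested as binding sites.

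Across the 9 genes, 0 passed an adjusted p of 0.05 in edgeR's quasi-likelihood test in either direction, where among all 14533 genes 7.54% rose and 7.84% fell. The values were lower for 7 genes and higher for 2, with a median log2 difference of -0.18 beside -0.01 over all genes. At an unadjusted p under 0.05 the quasi-likelihood test gave 1 member, Cd151, DESeq2 gave 1 and the likelihood ratio test 0, while 29.5% of all genes passed that level in the quasi-likelihood test. Adjusted p-values of the members ran from 0.112 to 0.842. A p that misses the threshold does not show equal levels, so the width of each interval is given with each gene. The interval lay within 0.6 on the log2 scale for 8 of 9 members and for 45.2% of all genes. All genes were kept from 0.5 CPM in 6 mice upwards, whereas the lowest member value in any mouse was 76.6 CPM. No member separated the 6 WT from the 6 Pparg-/-epi mice (0 of 9, against 7.9% of all genes).

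**Figure D1:**
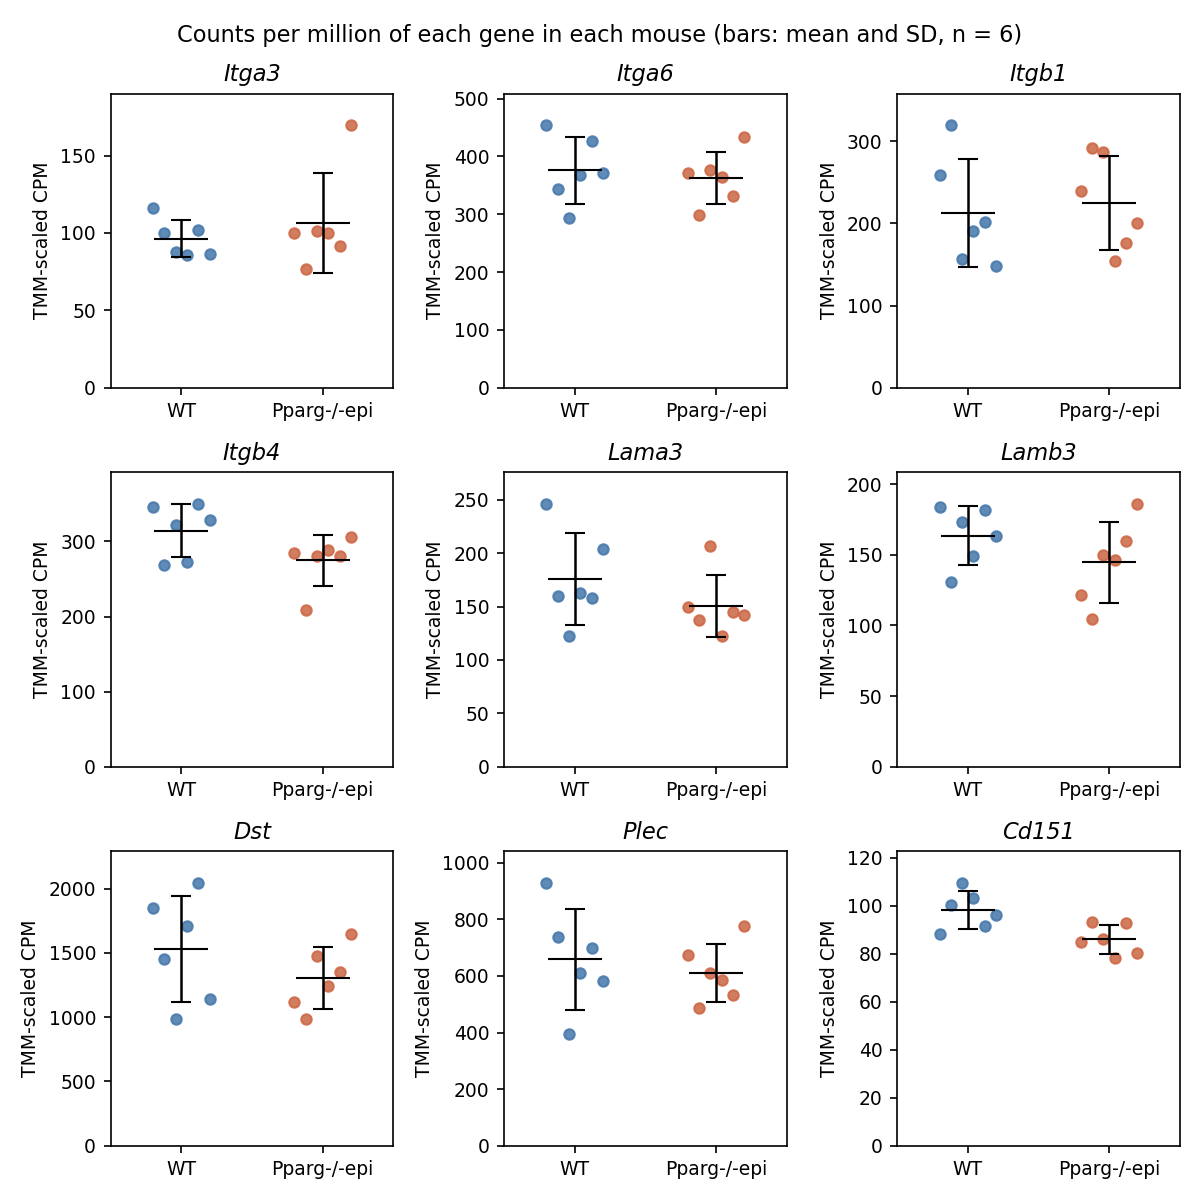
Level of each of the 9 genes in each mouse, as TMM-scaled CPM on a linear axis from 0. Points are mice in replicate order, and bars give the mean and SD of 6 mice. WT and Pparg-/-epi points overlap in every panel, with Cd151 the tightest and Itgb1 among the most spread.

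Itga6 encodes the α6 subunit of the hemidesmosomal integrin (chr2:71786939-71858427, plus strand, mm10). Its level in WT mice was lowest at 292.9 CPM, with a median of 369.2 and a highest value of 454.3 CPM, whereas the Pparg-/-epi mice gave 298.9, 367.5 and 433.2 CPM. Both groups covered nearly the same range. The log2 difference was -0.05 (SE 0.12, 95% interval -0.31 to 0.21, adjusted p = 0.819 by edgeR).

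Itgb4 encodes the β4 partner, whose long cytoplasmic tail binds plectin (chr11:115974725-116008411, plus strand). WT mice had 268.6, 325.2 and 349.9 CPM as the lowest, median and highest values, and Pparg-/-epi mice 208.7, 282.6 and 306.1 CPM. Pparg-/-epi replicate 8 was the lowest of the 12, and 2 of the WT mice lay below most of the other group. Between genotypes the log2 difference was -0.19 (SE 0.11, interval -0.43 to 0.04, adjusted p = 0.257 by edgeR). The annotated exons share 55 bases, 0.892% of the gene's exon length, with Galk1 on the opposite strand.

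Dst, which encodes the BP230 plakin of skin and also long nerve and muscle forms, lies at chr1:33908225-34308662 on the plus strand. Its counts were the largest of the 9 genes, at 984.0, 1581 and 2045 CPM in WT (lowest, median, highest) and, after loss of Pparg, 984.2, 1300 and 1644 CPM. The highest value was that of WT replicate 5, the mouse with the highest muscle markers. WT replicates 1 and 4, at 1847 and 1706 CPM, also lay above every Pparg-/-epi mouse. Counts summed over the gene do not separate the isoforms, and the part of muscle RNA in the Dst level was not tested. Loss of Pparg went with a log2 difference of -0.23 (SE 0.19, interval -0.65 to 0.18, adjusted p = 0.467 by edgeR). It was -0.13 without WT replicate 5 and -0.33 without WT replicate 3. Dst was the 1 member whose interval reached past 0.6.

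Plec encodes plectin, the linker from integrin β4 to keratin (chr15:76170974-76231378, minus strand). WT mice spanned 393.6 to 928.7 CPM around a median of 654.7, and Pparg-/-epi mice 486.6 to 777.4 CPM around 598.6. The WT range took in every Pparg-/-epi mouse. The log2 difference was -0.11 (SE 0.18, interval -0.50 to 0.29, adjusted p = 0.746 by edgeR). Without WT replicate 1 it was -0.00139.

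Cd151, the tetraspanin partner of the laminin-binding integrins (chr7:141467362-141471481, plus strand), varied least. The WT values were 88.2, 98.3 and 109.4 CPM (lowest, median, highest) and those of Pparg-/-epi mice 78.3, 85.6 and 93.3 CPM. The groups overlapped between 88.2 and 93.3 CPM. The log2 difference was -0.19 (SE 0.08, interval -0.35 to -0.03), a level 12.4% lower, with an unadjusted p of 0.0261 and an adjusted p of 0.112 by edgeR. The biological coefficient of variation of Cd151 was 0.125, the smallest of the members, beside a median of 0.235 over all genes.

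Lama3 encodes the α3 chain of the anchoring laminin (chr18:12334024-12583012, plus strand). WT mice had 122.2, 161.2 and 246.0 CPM (lowest, median, highest), the Pparg-/-epi mice 121.9, 143.1 and 206.3 CPM. WT replicate 1 was the highest of the 12 and Pparg-/-epi replicate 9 stood above the rest of its group. This gave a log2 difference of -0.22 (SE 0.17, interval -0.58 to 0.13, adjusted p = 0.405 by edgeR).

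Lamb3, on chr1:193301994-193343878 (plus strand), encodes the β3 chain. WT mice had 130.4, 168.2 and 184.1 CPM and Pparg-/-epi mice 104.4, 148.3 and 186.0 CPM. The highest and the lowest of all 12 mice were both Pparg-/-epi. This gave a log2 difference of -0.18 (SE 0.14, interval -0.47 to 0.12, adjusted p = 0.428 by edgeR). With RIN in the model it was -0.0726. With the sets of mouse names (192 to 222, and 225 and 226) as a term it was -0.107.

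Itga3, the α3 subunit of the actin-linked laminin receptor (chr11:95044475-95076811, minus strand), was 1 of the 2 genes with a higher mean in Pparg-/-epi mice. The WT values were 85.6, 93.8 and 116.1 CPM, and those of Pparg-/-epi mice 76.6, 100.2 and 169.8 CPM. The top value came from Pparg-/-epi replicate 12, and the other 5 mice of that group lay between 76.6 and 101.5 CPM. Between genotypes the log2 difference was 0.15 (SE 0.17, interval -0.21 to 0.51, adjusted p = 0.609 by edgeR). Without replicate 12 it was -0.03.

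Itgb1, the β1 subunit that many integrins of other cell types also use (chr8:128685654-128733579, plus strand), was the most variable of the 9, with a biological coefficient of variation of 0.269. WT mice had 148.8, 196.4 and 319.9 CPM and Pparg-/-epi mice 154.9, 220.1 and 292.2 CPM. WT replicates 1 and 2 and Pparg-/-epi replicates 7, 8 and 9 had 239.7 CPM or more, and the other 7 mice 201.9 CPM or less. Between genotypes the log2 difference was 0.08 (SE 0.21, interval -0.38 to 0.54, adjusted p = 0.842 by edgeR).

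**Figure D2:**
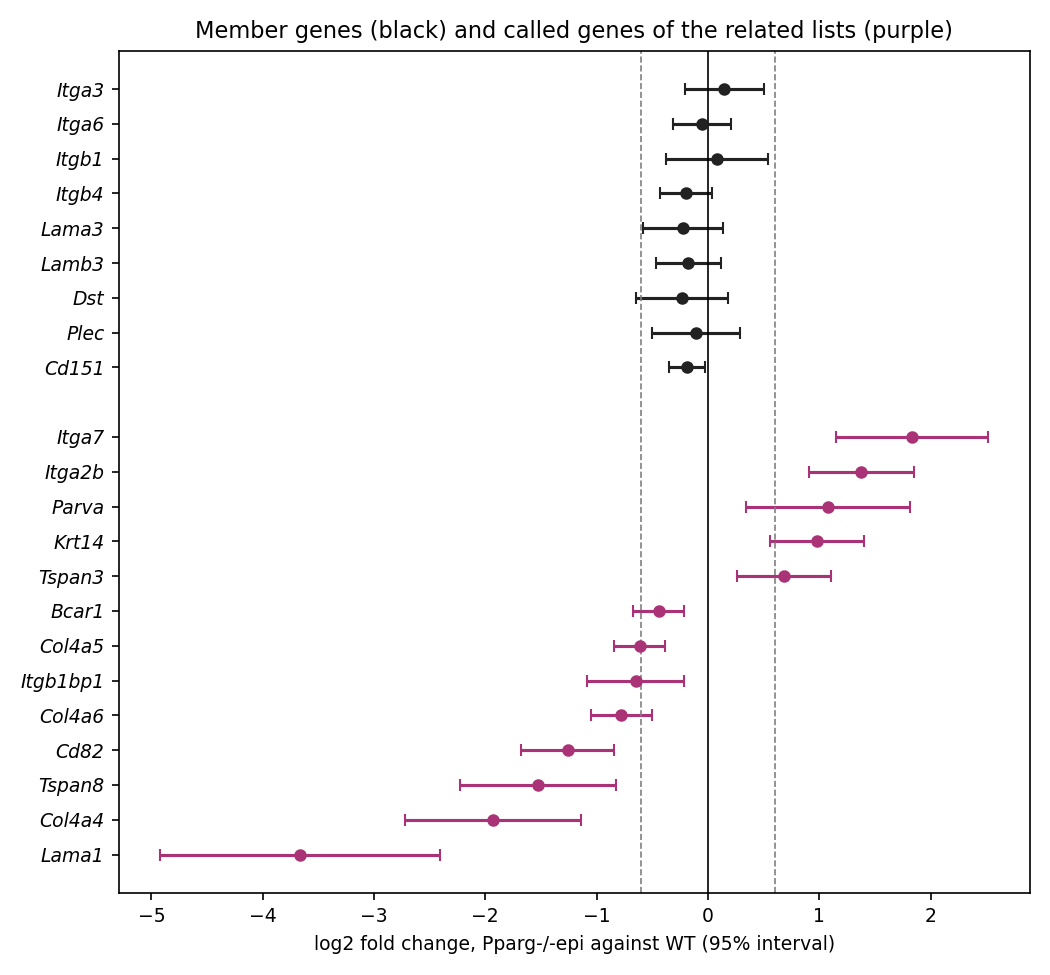
Log2 difference of Pparg-/-epi against WT with its 95% interval for the 9 genes (black) and for the 13 genes of the related lists that passed an adjusted p of 0.05 (purple); dashed lines mark 0.6 on the log2 scale in each direction. The black intervals lie between -0.65 and 0.54, while the purple points run from -3.66 for Lama1 to 1.84 for Itga7.

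Levels were compared between genes per kilobase of exon (RPKM, CPM divided by the exon length in kilobases). Itga6 came first in both groups, at 62.4 ± 9.61 RPKM in WT and 60.2 ± 7.54 in Pparg-/-epi mice (SD, n = 6 each). It exceeded the next gene, Dst, in all 6 WT mice, but exceeded Itgb1 (53.7 ± 13.7 RPKM) in only 4 of 6 Pparg-/-epi mice, within their spread. In WT the next were Dst at 51.02 ± 13.7, Itgb4 at 50.99 ± 5.75, Itgb1 at 50.7 ± 15.6 and Cd151 at 48.8 ± 3.89 RPKM. These did not differ beyond their spread: Dst exceeded Itgb4 in 4 of 6 WT mice, Itgb4 exceeded Itgb1 in 3 and Itgb1 exceeded Cd151 in 3. Lamb3 (39.3 ± 4.98 RPKM) and Plec (37.6 ± 10.2) followed. Itga3 at 18.3 ± 2.28 and Lama3 at 17.0 ± 4.18 RPKM were the lowest pair, and Plec exceeded Itga3 in all 6 WT mice. In Pparg-/-epi mice Itga3 (20.3 ± 6.14 RPKM) and Lama3 (14.5 ± 2.81) were again the lowest, and Lamb3 exceeded Itga3 in all 6. Exon lengths are unions over all isoforms, so the per-length levels of Dst (30001 bases) and Plec (17515 bases) are divided by exons that a single transcript does not all use.

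Products that assemble together were compared as ratios of these per-length levels in each mouse, with 2-sided exact permutation tests of the log2 ratio (6 against 6, smallest possible p = 0.00216) and Benjamini-Hochberg adjustment over the 5 ratios computed. None of the 4 pairings within the junction passed the test, and their ranges overlapped. Itga6 to Itgb4 was 1.23 ± 0.166 in WT and 1.35 ± 0.0978 in Pparg-/-epi mice (SD, n = 6 each, exact permutation p = 0.141, adjusted 0.332). Itga3 to Itga6 was 0.296 ± 0.0340 and 0.332 ± 0.0577 (exact p = 0.199, adjusted 0.332). For Plec to Dst the ratios were 0.747 ± 0.135 and 0.813 ± 0.126 (exact p = 0.379, adjusted 0.473). Lama3 to Lamb3 was 0.435 ± 0.0985 in WT and 0.430 ± 0.107 in Pparg-/-epi mice (exact p = 0.944).

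The ratio of the integrin to the keratins it anchors separated the genotypes. Itga6 plus Itgb4 to Krt5 plus Krt14 lay between 0.0240 and 0.0379 in WT and between 0.0170 and 0.0199 after loss of Pparg, so the groups did not overlap. The difference was -0.68 on the log2 scale (exact permutation p = 0.00216, the smallest possible, adjusted 0.0108), lower in 6 of 6 Pparg-/-epi mice than in any WT mouse. In female mice alone it was -0.91 with an exact p of 0.0571, the smallest that 4 against 3 allows. Of the 4 genes in the ratio, Krt14 alone passed the test. It rose by 0.98 on the log2 scale (interval 0.56 to 1.41, adjusted p = 0.00559 by edgeR), from 1585 to 3767 CPM over the WT mice to 4301 to 5691 CPM over the Pparg-/-epi mice, while Krt5 gave 0.14 (interval -0.29 to 0.58, adjusted p = 0.690 by edgeR). Krt15, another basal keratin outside this ratio, fell by 1.74 (adjusted p = 0.00106 by edgeR). Since Krt14 is in the denominator, the p of the ratio is not separate evidence about Itga6 or Itgb4. Their own log2 differences were -0.05 and -0.19.

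**Figure D3:**
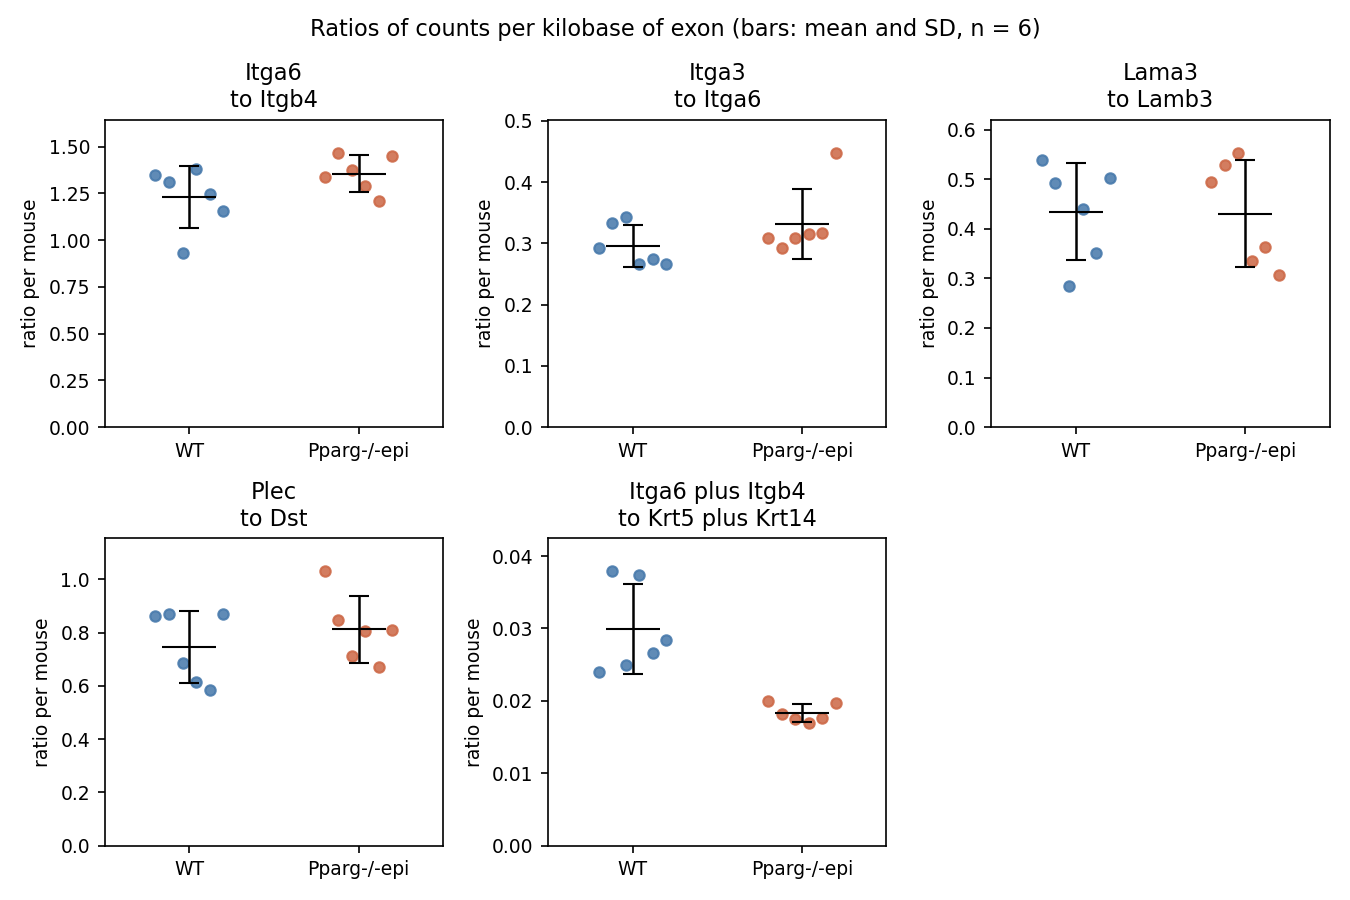
Ratios of per-length levels in each mouse on linear axes from 0, with the mean and SD of 6 mice. The panel of Itga6 plus Itgb4 to Krt5 plus Krt14 shows 2 groups with no overlap (0.0240 to 0.0379 and 0.0170 to 0.0199), and the other 4 panels overlap widely.

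Around the 9 genes, 7 lists of related genes held 105 names, of which 103 were in the table (Itgad and Tspan1 were not listed). Of these, 5 (4.85%) had higher and 8 (7.77%) lower levels after loss of Pparg, shares no larger than the 7.54% and 7.84% over all genes. Of these 13 calls, 10 held when each mouse was left out in turn (Krt14, Itga2b, Itga7, Lama1, Col4a4, Col4a5, Col4a6, Bcar1, Cd82 and Tspan8). The number of higher calls depended on single mice. It was 25 without WT replicate 2, when 11.6% of all genes were called higher and 11.4% lower, and 3 without any 1 of WT replicates 3, 4, 5 and 6 and Pparg-/-epi replicates 7, 8 and 9. WT replicate 2 had the lowest sum of suprabasal markers, 9409 CPM against at least 17796 CPM in any other mouse, and of basal markers (7815 CPM). Its sums of sebaceous, hair follicle and leukocyte markers were the highest of all mice, at 850.4, 566.5 and 586.4 CPM. Why the calls depended on this mouse was not tested. None of the 9 members passed in any of these fits.

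Among other genes of the anchoring complex, 1 of 9 passed the test, Krt14. Col17a1, which encodes the transmembrane collagen BP180 of the hemidesmosome, averaged 2327 ± 289 CPM in WT against 1894 ± 349 CPM (SD, n = 6 each), for a log2 difference of -0.30 (adjusted p = 0.213 by edgeR). Col7a1, the anchoring fibril collagen, gave -0.38 (adjusted p = 0.178 by edgeR) and Exph5, which encodes exophilin 5, -0.42 (adjusted p = 0.0516 by edgeR). Col17a1, Col7a1 and Exph5 were picked after their values were seen, and the median log2 difference of the list was -0.08. Krt5 and Krt14 were the 2 most abundant genes of this list per length. Without WT replicate 2 the list had 1 higher and 3 lower calls.

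Of 25 other basement membrane genes, 4 fell and 0 rose. Lama1, the laminin α1 chain, fell by 3.66 in log2 units (interval -4.92 to -2.41, adjusted p = 0.00153 by edgeR). WT mice held 13.2 to 56.0 CPM, and the Pparg-/-epi group held 0.424 to 5.33 CPM without overlap. The collagen IV chains Col4a4, Col4a5 and Col4a6 fell by 1.93, 0.61 and 0.78 (adjusted p = 0.00437, 0.00264 and 0.00177 by edgeR). The most abundant genes of the list per length were Dag1, the dystroglycan receptor, at 27.9 RPKM in WT and 36.2 in Pparg-/-epi mice (adjusted p = 0.343 by edgeR), and Agrn, agrin, at 31.9 and 29.5 RPKM (adjusted p = 0.506).

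Of 21 other integrin genes, 2 rose and 0 fell. Itga7, another laminin-binding α subunit best known from muscle, rose by 1.84 (interval 1.15 to 2.52, adjusted p = 0.00248 by edgeR), from 3.84 to 14.9 CPM over WT mice to 18.4 to 38.6 CPM over Pparg-/-epi mice. Itga2b, the platelet α subunit, rose by 1.38 (adjusted p = 0.00153 by edgeR) (WT 1.95 to 3.56 CPM, Pparg-/-epi 5.31 to 10.5 CPM). Both stayed far below Itga6 and Itgb4, at 1.90 RPKM in WT and 6.82 in Pparg-/-epi mice for Itga7 and 0.779 and 2.04 RPKM for Itga2b. Itgb5 and Itgav, the most abundant of the list per length, gave -0.11 and -0.07 (adjusted p = 0.636 and 0.791 by edgeR). Without WT replicate 2, 11 of the 21 were called higher and 0 lower.

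Tetraspanins other than Cd151 moved in both directions. Cd82, which like Cd151 associates with integrins, fell by 1.26 in log2 units (adjusted p = 0.00130 by edgeR), from 188.0 to 377.0 CPM over WT mice to 91.4 to 155.2 CPM over Pparg-/-epi mice. Tspan8 fell by 1.53 (adjusted p = 0.00764 by edgeR), and Tspan3 rose by 0.69 (adjusted p = 0.0318 by edgeR), though not in every fit with a mouse left out. Cd9, the most abundant of the list per length, gave -0.38 (adjusted p = 0.0946 by edgeR), and 12 of the 15 tetraspanin genes did not pass.

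Among 22 integrin-linked adhesion genes Parva, which encodes the actin-binding α-parvin, rose by 1.08 (adjusted p = 0.0489 by edgeR), while Bcar1, the scaffold p130Cas, fell by 0.44 (adjusted p = 0.0136) and Itgb1bp1, an integrin β1 tail-binding protein, fell by 0.65 (adjusted p = 0.0453). The calls of Parva and Itgb1bp1 were lost in some fits with a mouse left out. Actn4 and Tns4, the most abundant of the list per length, gave 0.00 and 0.17 (adjusted p = 0.990 and 0.537 by edgeR). None of the 5 other plakins passed, with Dsp (desmoplakin of desmosomes) at 0.00 and Ppl (periplakin) at -0.23 (adjusted p = 0.997 and 0.331 by edgeR). None of the 6 laminin-processing proteases passed either, with Mmp14 at 0.20 and Mmp2 at 0.26 (adjusted p = 0.746 and 0.781 by edgeR). Without WT replicate 2 the calls were 6 higher and 2 lower among the adhesion genes, 2 higher among the proteases, 2 higher and 4 lower among the basement membrane genes, 3 higher and 3 lower among the tetraspanins, and 0 among the plakins.

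The members were next followed across mice, as Pearson's r of log2 CPM after each genotype's mean was taken out. The 12 points differ in library depth and in dermal markers, and the values are given with no test. Over the 36 pairs of members r ran from -0.88 to 0.88 with a median of 0.35, and 27 pairs were positive. Itga6 went with Plec (0.88), Dst (0.82) and Itga3 (0.76), and Itgb4 with Lamb3 (0.85). Itga6 and its own partner Itgb4 gave 0.64, and Lama3 and Lamb3 gave 0.15. Cd151 ran the other way, at -0.88 with Itga6, -0.65 with Itga3 and -0.63 with Itgb4. Itgb1 was near 0 with Itga3 (0.04) and Itga6 (0.09).

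The 3 genes most like each member among the other 14532, by the same r over 12 mice, included no other member. They were Myc, Arc and Papd7 for Itga3 (0.92, 0.91 and 0.91), Tbc1d2, Gas2l1 and Mir5098 for Itga6 (0.92, 0.92 and 0.91) and Tnks1bp1, Desi1 and Fam83h for Itgb4 (0.95, 0.93 and 0.91). For Itgb1 they were Klhl22, Sdc2 and Hspa12b (0.98, 0.98 and 0.97). Trim25, Hdlbp and Bcl2l13 led for Lama3 (0.89, 0.88 and 0.86), and Mogs, Myd88 and Dnajb1 for Lamb3 (0.95, 0.94 and 0.93). Peli2, Ppm1a and Dnm3os came first for Dst (0.90, 0.88 and 0.88), Zfp46, Tgfbrap1 and Fbxo42 for Plec (0.94, 0.93 and 0.91) and Sh2b2, Bbs4 and Prkcb for Cd151 (0.89, 0.88 and 0.88). These are the top 3 of 14532 values for each member.

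Since the scraping reached vessels, the members were set beside the mean log2 CPM of the 6 dermal markers, and beside RIN, over the 12 mice with the genotype means taken out (18 relations, permutation tests within genotype, 100000 resamples). Itgb1 went with the dermal markers at Pearson's r = 0.79 (permutation p = 0.00315, adjusted 0.0567) and Spearman's rho = 0.79 (permutation p = 0.00632, adjusted 0.114), and neither passed after adjustment. Without WT replicates 1 and 6, the mice farthest from the median, r was 0.87. It was 0.57 within the 6 mice whose names hold the numbers 192 to 222 and 0.62 within the 6 of 225 and 226. The other 8 members had r between -0.27 and 0.43 with the dermal markers. Without WT replicates 1 and 6 this became -0.78 for Lamb3 and -0.58 for Itgb4 and lay between -0.34 and 0.26 for the other 6. Lama3 turned between the sets of names, at 0.52 within 192 to 222 and -0.82 within 225 and 226. With RIN, r was 0.72 for Itgb1 and -0.71 for Lamb3 (permutation p = 0.0128 and 0.0148, both 0.0886 adjusted), with rho of 0.67 and -0.65 (permutation p = 0.0288 and 0.0318, both 0.191 adjusted). Without Pparg-/-epi replicate 11, the mouse farthest from the median RIN, and WT replicate 2, these r were 0.57 and -0.66. WT replicate 5 and Pparg-/-epi replicate 7 lay as far from that median as WT replicate 2 and were kept. Within the sets of names r with RIN was 0.48 and 0.38 for Itgb1 and -0.94 and -0.10 for Lamb3. The part of dermal RNA or RNA quality in the levels of the members was not tested.

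**Figure D4:**
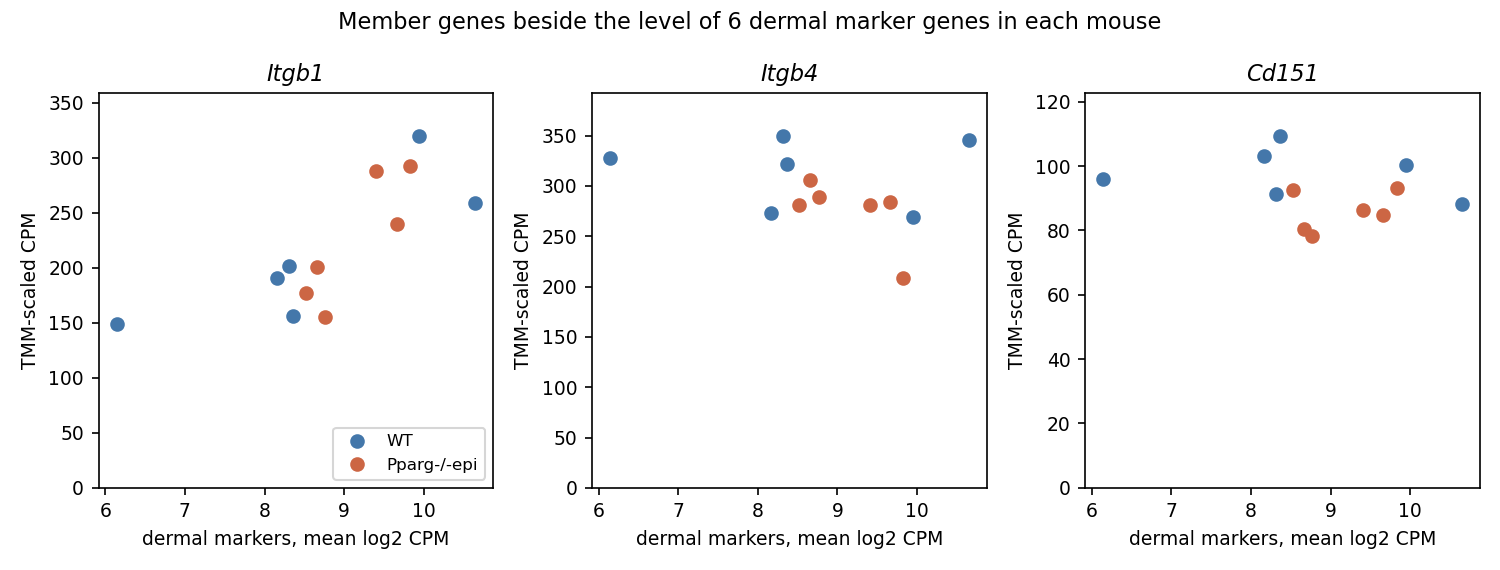
Levels of Itgb1, Itgb4 and Cd151 (TMM-scaled CPM, linear axis from 0) against the mean log2 CPM of 6 dermal markers in each mouse. Itgb1 runs upwards with the dermal markers in both genotypes (r = 0.79 over 12 mice with genotype means removed), whereas r was -0.23 for Itgb4 (-0.58 without WT replicates 1 and 6) and -0.10 for Cd151.

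Some genes of other marker lists also differed between genotypes. Over all genes, 7.54% passed as higher and 7.84% as lower. All 4 sebaceous gland markers (Scd3, Awat1, Far2, Fa2h) fell, with sums of 17.6 to 850.4 CPM in WT against 1.25 to 4.25 CPM, and 3 of them were at 0 counts in at least 1 mouse. One gene rose of the suprabasal keratinocyte list (Ivl, by 1.00 on the log2 scale, adjusted p = 0.000232 by edgeR) and of the endothelial list (Emcn, by 1.79, adjusted p = 0.0340). One fell of the Schwann cell list (Mbp, by 0.63, adjusted p = 0.000501 by edgeR) and of the leukocyte list (Cd3e, by 0.75, adjusted p = 0.0325). None passed among 7 muscle, 4 melanocyte or 5 hair follicle markers, and no marker outside the sebaceous list was at 0 in any mouse (Flg was not listed in the table). Their part in the member levels was not tested.

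Sex and the number held in each mouse's name, whose meaning the labels do not give, were checked because both are spread unevenly over the genotypes. The genotype difference depended on sex for 0 of 9 members, against 0% of all genes at an adjusted p under 0.05 (edgeR, 741 genes and 0 members at an unadjusted p under 0.05). The interaction values ran from -0.39 (SE 0.43) for Itgb1 to 0.37 (SE 0.28) for Itga3 on the log2 scale. Within the 6 mice of names 192 to 222 all 9 differences were below 0, from -0.49 for Plec to -0.13 for Cd151. Within the 6 of names 225 and 226 they ran from -0.22 for Cd151 to 0.52 for Itga3, and 6 of the 9 were above 0. In this set WT replicates 3 to 6 were all named 226, and Pparg-/-epi replicates 11 and 12 were named 225. Genotype and name number cannot be told apart there. The Itga3 value includes replicate 12, the mouse with the highest Itga3. The other set held WT replicates 1 and 2 (names 217 and 222) and Pparg-/-epi replicates 7 to 10 (names 192, 195, 195 and 222). Only name 222 held both genotypes, so genotype and name number were mostly not separable in this set either. No member passed in either set, with smallest adjusted p of 0.299 and 0.192 (edgeR), and the difference between the sets was not tested. Itgb4, Lama3 and Cd151 were the 3 members whose value was below 0 in both.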

How the data were processed

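Per the labels and the study's methods, the authors sequenced mRNA libraries, aligned reads with STAR 2.5.2b to mm10 and counted them per gene with featureCounts (Subread 1.5.1). The deposited values are raw counts, without normalization, for 14533 genes, each above 0.5 CPM in at least 6 mice, and 2800 blank rows were dropped. The strand setting of the counting is not given in the sources used here. Counts were compared with edgeR 4.0.16 (R 4.3.3), TMM scaling and the quasi-likelihood test with genotype as the only term, Benjamini-Hochberg adjustment over all genes, and an adjusted p threshold of 0.05. Alternatives were DESeq2 1.42.0, the likelihood ratio test used in the study, other scalings, a count filter, covariates and left-out mice. The script was tested on simulated data. Ratios used exact permutation tests (scipy 1.17.1). Figures were drawn with matplotlib 3.10.9.

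The members and lists were chosen with earlier results of these data known. Named genes are all members, list genes past the test, the 2 most abundant per list, and the 3 genes most like each member by r. Col17a1, Col7a1 and Exph5 fall outside this rule and were chosen after their values were seen. Fits within each set of mouse names were added after seeing the data. 1 gene of the lists is not reported here. Replicates are separate mice.

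Of 75-base stretches of the members' transcripts, 0% (Itga3, Itgb1, Lamb3) to 4.74% (Dst) also occur in another gene.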

Additional observations from a re-analysis of the deposited data

Results flagged for a closer look

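By Dixon's test at its 95% level, 5 values stood far from the other 5 mice of their group, among 54 groups of values screened, where chance flags about 1 in 20 groups. Itga3 was 169.8 CPM in Pparg-/-epi replicate 12, with the others at 76.6 to 101.5 CPM. The ratio of Itga3 to Itga6 was also highest in this mouse, at 0.448 against 0.293 to 0.317. Itga2b, too, was highest there, at 10.5 CPM against 5.31 to 7.15 CPM. Itgb4 was lowest in Pparg-/-epi replicate 8, at 208.7 CPM against 280.6 to 306.1 CPM. Lama3 was highest in Pparg-/-epi replicate 9, at 206.3 CPM against 121.9 to 149.1 CPM.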

How the results depend on the processing

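The count of members past the threshold was 0 under every alternative run (DESeq2, the likelihood ratio test, DESeq2 size factors, total counts, at least 10 counts in every mouse, the added log2 threshold of 0.6, sex, RIN, age or name number in the model, female mice alone, each mouse left out, and within each set of names). Of 216 member values from 24 alternatives per gene, 204 kept their sign and 12 did not, and the smallest adjusted p was 0.0645 (edgeR, Cd151 without WT replicate 1). Itga3 ran from -0.0335 (without Pparg-/-epi replicate 12) to 0.205 and was -0.18 within names 192 to 222. Itgb1 ran from -0.0250 to 0.224 with a mouse left out, below 0 without WT replicate 6 or Pparg-/-epi replicate 8 or 9, and was -0.0761 with RIN, -0.0684 with name number and -0.24 within names 192 to 222. Within names 225 and 226 Itga6 was 0.0570, Lamb3 0.0421, Dst 0.0181 and Plec 0.18. With a mouse left out, Plec ran from -0.22 to -0.00139, Lama3 from -0.36 to -0.12, Dst from -0.33 to -0.13, Lamb3 from -0.26 to -0.12, Itgb4 from -0.25 to -0.14, Itga6 from -0.11 to -0.00472 and Cd151 from -0.23 to -0.16. The cause was not tested. List genes called higher numbered 3 to 25 and lower 7 to 12 with a mouse left out. The log2 difference of Lama3 to Lamb3 ran from -0.135 to 0.0709 with a mouse left out and was 0.00347 in female mice. With female mice alone, Itga6 plus Itgb4 to Krt5 plus Krt14 gave -0.91, at the smallest exact permutation p that 4 against 3 allows (0.0571). With a mouse left out it ran from -0.74 to -0.61. No paired analysis was possible because the replicate numbers only run from 1 to 12 and the labels pair no mice across genotypes. The name number term named above was a block that set names 192 to 222 against names 225 and 226. It did not adjust for single numbers. Names 192, 195 and 225 held only Pparg-/-epi mice, and 217 and 226 only WT mice. Name 222 alone held both genotypes. With 6 mice a group, differences smaller than the intervals given could not be seen, and intervals of counts cover these mice only.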
